A study of Mus musculus and Bos taurus with 6 samples.

Results

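SOX9 peaks near the distal ends of autosomes are the regions described here, in fetal testis chromatin of mouse and cattle. Members were all peaks on numbered chromosomes whose midpoint lay within 5 Mb of the end of the last peak of their chromosome. There were 425 of them among the 6402 mouse autosomal peaks and 960 among the 11796 bovine ones, 1385 in all of the 18407 peaks of both lists. The mouse samples were testes of the Swiss OF1 strain at stage E13.5 and the bovine samples Holstein testes at day 90 after fertilization. Each species had 2 libraries immunoprecipitated with a home-made rabbit antibody against SOX9 and 1 input library of chromatin that was not immunoprecipitated, and 1 peak list was deposited for them together. The labels give no genetic change or treatment, and do not say how many animals went into a library. Gonads were crushed whole, so all cell types of the testis were present, and the lists carry no gene names or other measure against which the tissue could be checked. Mouse positions refer to the build mm9 and bovine positions to UMD3.1, both counted from 1.

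SOX9, a transcription factor with an HMG box as its DNA-binding domain, turns supporting cells of the developing gonad into Sertoli cells and keeps acting in them. It binds short A/T-rich sites, mostly in enhancers and promoters, often beside other factors. Autosomes of mouse and cattle are acrocentric: the centromere sits near 1 end, where the numbering of bases starts, and the numbering ends at the telomere of the long arm. The last peak of a chromosome is the one closest to the telomere of the long arm in the list, and the first peak the one closest to the centromere side. How far the last peak lies from the end of the chromosome was not measured, since chromosome lengths were not used. Telomere-near regions of mammalian chromosomes are often rich in genes, CpG islands and recombination. The genes and the sequences of these peaks were not analysed here.

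The rule itself used the positions of peaks, so their density near the ends is given as a description without a test. Each list stands for all libraries of a species, so no value below has an error between replicates. All intervals are 95% intervals. Those of densities, their ratios and shares cover counting error only, and neighbouring peaks are not independent. Those of median widths cover the spread among peaks, and those of fitted widths have errors clustered by chromosome. No source used here gives the peak caller or the depth behind the lists. Mouse chromosome 16 was not analysed here, and whether peaks of other chromosomes were set aside before this work is not known.

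The distal windows were more densely bound than the rest of the same chromosomes in both species. In mouse they held 4.72 peaks per Mb (4.28 to 5.19) against 2.71 (2.64 to 2.78) in the rest. They made up 3.92% of the summed span from first to last peak and held 6.64% of the peaks. Set against the density of its own chromosome's rest, the expected number was 248.3 peaks, and the observed 425 were 1.71 times as many (1.55 to 1.89). In cattle the windows held 6.62 peaks per Mb (6.21 to 7.05) against 4.63 (4.54 to 4.72) in the rest. They took 5.84% of the span and 8.14% of the peaks, and the 960 observed were 1.34 times the 717.3 expected (1.25 to 1.43). Because each window ends on a peak, that peak is always counted. Without the first and the last peak of each chromosome the ratios were 1.64 (1.49 to 1.82) in mouse and 1.30 (1.22 to 1.40) in cattle.

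Most chromosomes shared this direction, with a wide spread among them. In mouse 14 of 18 distal windows were denser than the rest of their chromosome, where 42.9% of all 5 Mb tiles laid back from the last peak were. In cattle it was 22 of 29 windows, against 41.4% of tiles. The ratio of single chromosomes ran from 0.246 to 3.87 in mouse, with a median of 1.67, and from 0.258 to 3.81 in cattle, with a median of 1.35. The distal window ranked among the 3 fullest tiles of its chromosome on 10 mouse chromosomes and 12 bovine ones, against 12.2% and 18.6% of all tiles. It was the fullest on 3 mouse chromosomes (10, 11 and 15) and 2 bovine ones (17 and 21), against 18 of 450 mouse tiles (4%) and 32 of 485 bovine tiles (6.60%), so the bovine count was near the share of all tiles. On 3 mouse and 5 bovine chromosomes the distal window ranked in the lower 50% of tiles.

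**Figure D1:**
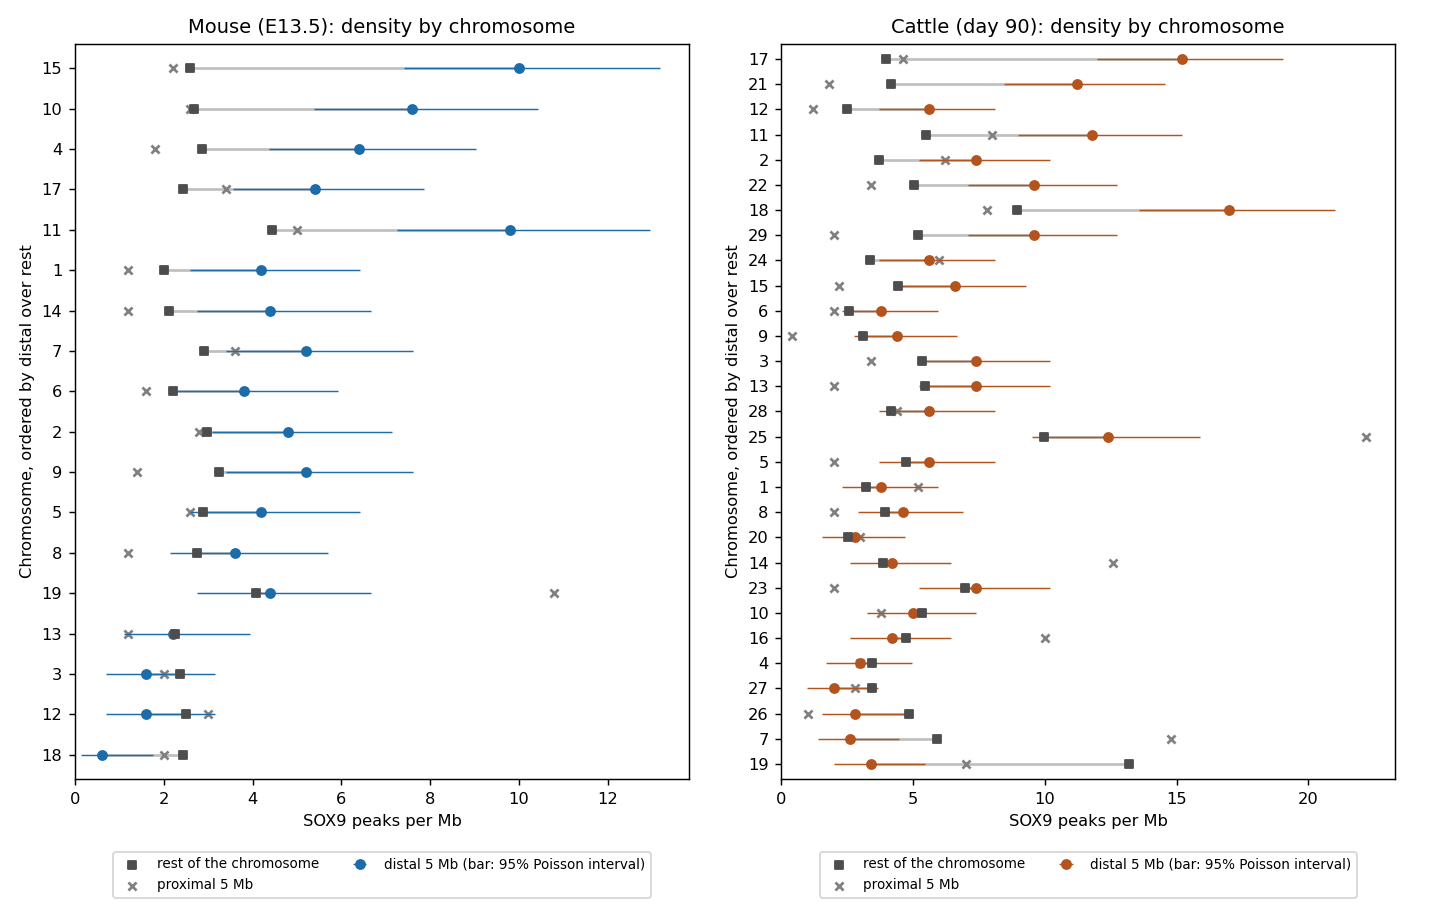
SOX9 peaks per Mb (x axis) on each numbered chromosome (y axis, ordered by the ratio of distal to rest) in mouse (left) and cattle (right). Coloured points with 95% Poisson bars are the distal 5 Mb, squares the rest of the chromosome and crosses the 5 Mb after the first peak; the distal point lies to the right of the square on 14 of 18 mouse and 22 of 29 bovine chromosomes.

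The fullest mouse window was that of chromosome 15, from 98368766 to 103368765, with 50 peaks or 10.0 per Mb. The rest of chromosome 15 held 2.58 per Mb, a ratio of 3.87 (2.80 to 5.27). Chromosome 11 followed with 49 distal peaks (116564782 to 121564781), and since the rest of this chromosome is the densest in the mouse list at 4.44 per Mb, its ratio was lower, 2.21 (1.61 to 2.97). On chromosome 10 there were 38 (123360719 to 128360718), at a ratio of 2.85 (1.98 to 3.99). The windows of chromosome 4, with 32 peaks between 150610771 and 155610770, and of chromosome 17, with 27 between 89792755 and 94792754, had ratios of 2.23 and 2.22.

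The emptiest mouse window was that of chromosome 18, with 3 peaks where its rest held 2.44 per Mb, a ratio of 0.246 (0.0503 to 0.729). It included a stretch of 3.37 Mb without a peak. Chromosomes 3 and 12 held 8 distal peaks each, with ratios of 0.676 (0.290 to 1.35) and 0.643 (0.275 to 1.29). A dense end was thus not a property of every mouse autosome.

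In cattle the fullest window was that of chromosome 18, from 60993452 to 65993451, with 85 peaks or 17.0 per Mb against 8.96 in its rest, a ratio of 1.90 (1.49 to 2.39). Chromosome 17 held 76 peaks (69881631 to 74881630). With 3.99 per Mb in its rest, this gave the highest bovine ratio, 3.81 (2.92 to 4.93). Next came 62 peaks at the end of chromosome 25 (from 37758423 up to 42758422), 59 at that of 11 (from 102213250 up to 107213249) and 56 at that of 21 (from 66437237 up to 71437236). Their ratios were 1.25 (0.936 to 1.63), 2.15 (1.61 to 2.81) and 2.70 (1.99 to 3.61), and the rest of chromosome 25 was itself dense, at 9.96 peaks per Mb.

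The fewest bovine distal peaks were on chromosome 27 with 10 and chromosome 7 with 13, followed by chromosomes 20 and 26 with 14 each. Chromosome 7 had a ratio of 0.439 (0.233 to 0.756) and chromosome 26 one of 0.577 (0.310 to 0.989), while chromosome 20, which is sparse throughout, stood at 1.11 (0.595 to 1.92). The lowest bovine ratio belonged to the most densely bound chromosome of the list. Chromosome 19 held 13.2 peaks per Mb in its rest and 17 peaks, 3.4 per Mb, in its distal window (58908760 to 63908759), a ratio of 0.258 (0.149 to 0.416), and this window was the emptiest of its 11 tiles. It was named for its low ratio after the values were seen. Without chromosome 19 the ratio over all bovine ends was 1.45.

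**Figure D2:**
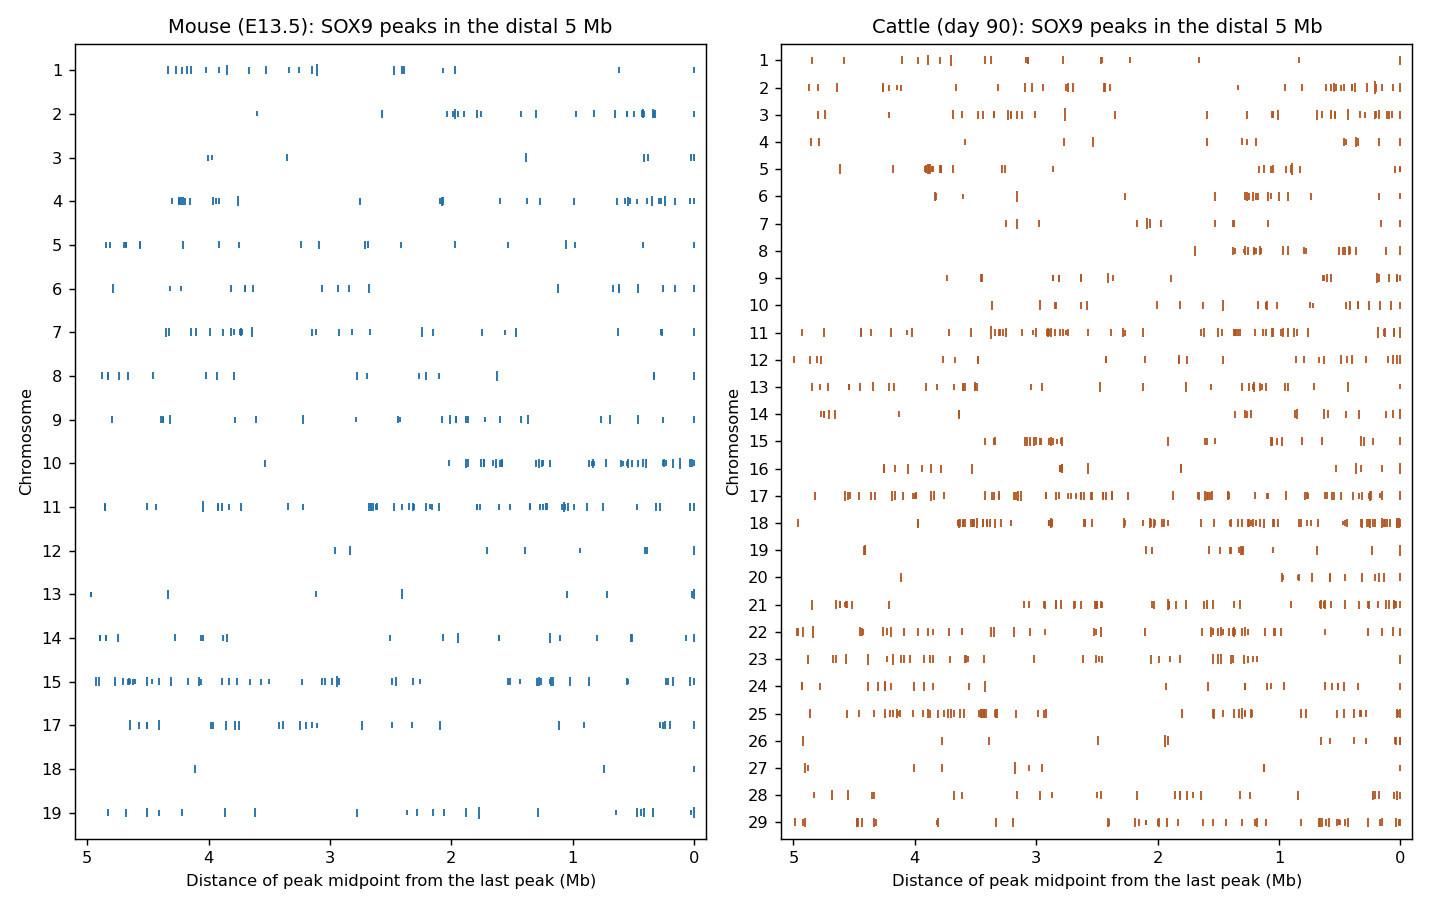
Every SOX9 peak of the distal windows, placed by the distance of its midpoint from the last peak of the chromosome (x axis, Mb, last peak at the right) for each chromosome (y axis) in mouse (left) and cattle (right); the length of a mark grows with peak width. Peaks are many on mouse 11 and 15 and on cattle 11, 17 and 18, and few on mouse 3, 12 and 18.

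The distal windows were also fuller than the windows of the same size on the centromere side, which are anchored on the first peak in the same way. The mouse count was 425 against 248, a ratio of 1.71 (1.46 to 2.01), with more distal than proximal peaks on 14 of 18 chromosomes. The bovine count was 960 against 734, a ratio of 1.31 (1.19 to 1.44), with more distal peaks on 19 chromosomes, fewer on 9 and the same number on 1. A few full proximal windows weighed on these ratios. Mouse chromosome 19 held 54 proximal and 22 distal peaks, and without it the mouse ratio was 2.08. In cattle chromosome 25 held 111 proximal against 62 distal peaks, chromosome 7 held 74 against 13, chromosome 14 held 63 against 21 and chromosome 16 held 50 against 21.

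Of the 5 steps of 1 Mb in a distal window, the outermost was the densest in both species. In mouse it held 6.61 peaks per Mb (5.48 to 7.91), or 5.61 without the last peak itself, and the next 4 steps held between 3.72 and 4.78. In the outermost Mb of cattle it was 9.38 (8.30 to 10.6), or 8.38 without the last peak, and 7.48 (6.52 to 8.55) in the second Mb. Without the last peak this is below the 9.03 (7.97 to 10.2) found between 9 and 10 Mb. The next 3 steps held 5.14, 6.52 and 4.59 peaks per Mb, the last of these (3.84 to 5.44) with the 4.63 of the rest inside its interval. The outermost Mb held 28.0% of the mouse members and 28.3% of the bovine ones. Steps counted from the first peak in mouse fell as well, from 4.83 per Mb (3.83 without the first peak) to 1.28 at 4 to 5 Mb. In cattle those steps held 5.97 (4.97 without the first peak), 6.28, 4.76, 4.79 and 3.52 per Mb. A decline away from the end peak was thus not particular to the distal windows.

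Both lists held dense tiles further inward. The mouse tile from 5 to 10 Mb held 280 peaks, 3.11 per Mb (2.76 to 3.50), fewer than the distal 425, and the distal count was the higher on 12 of 18 chromosomes. From 10 to 15 Mb the mouse density was 2.89 (2.55 to 3.26), but it was 3.77 (3.38 to 4.19) from 15 to 20 Mb and 3.88 (3.48 to 4.31) from 20 to 25 Mb, above the 2.71 of the rest. In cattle the tile from 5 to 10 Mb held more peaks than the distal tile, 1068 or 7.37 per Mb (6.93 to 7.82), and the distal count was higher on 13 chromosomes and lower on 15. Chromosome 29 alone had 122 peaks in this second tile against 48 in the distal one, and chromosome 25 had 103 against 62. The bovine density stayed at 6.25 per Mb (5.85 to 6.67) from 10 to 15 Mb and at 5.90 (5.51 to 6.31) from 15 to 20 Mb. It was still 4.97 (4.61 to 5.34) from 20 to 25 Mb and 5.15 (4.79 to 5.54) from 25 to 30 Mb, against 4.63 in the rest. Densities above the rest were thus not confined to the distal 5 Mb in either list, and in cattle the distal tile was not the fullest.

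**Figure D3:**
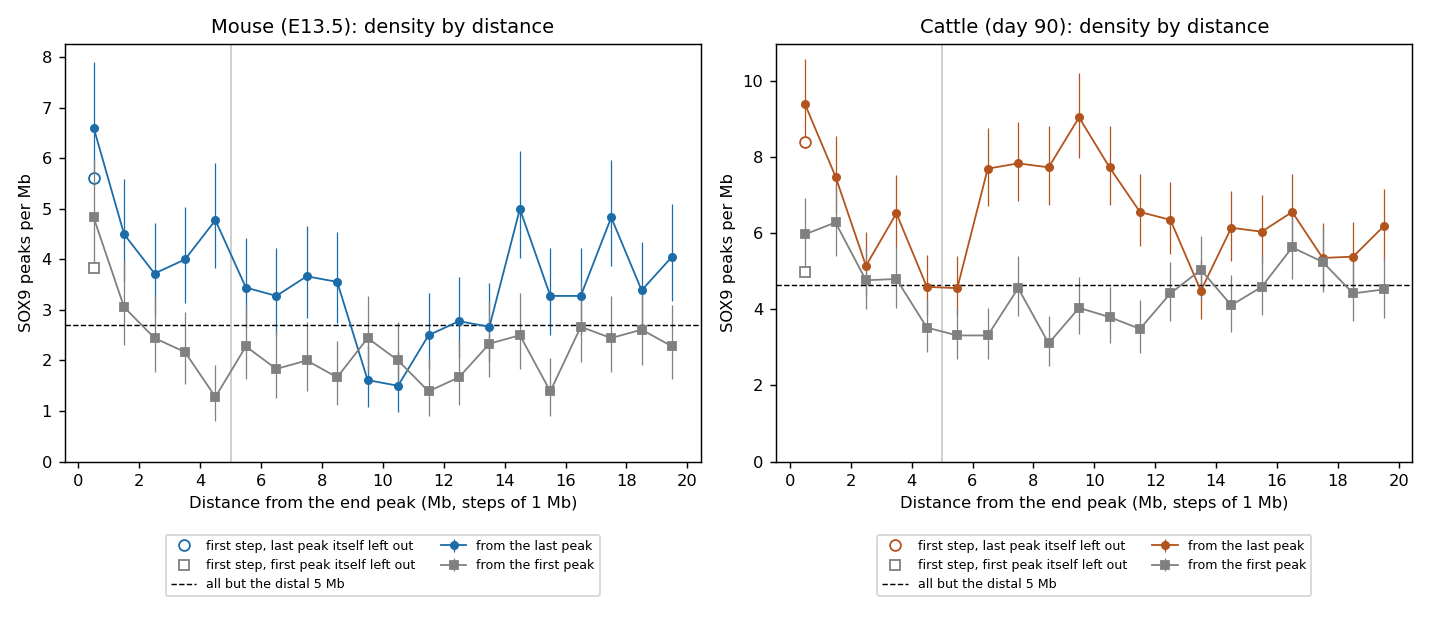
SOX9 peaks per Mb (y axis) in steps of 1 Mb from the last peak (coloured) and from the first peak (grey), summed over the autosomes of mouse (left) and cattle (right), with 95% Poisson bars; open symbols leave out the end peak and the dashed line is the density outside the distal 5 Mb. The outermost Mb reaches 6.61 in mouse and 9.38 in cattle, and the bovine curve has a second rise between 6 and 13 Mb.

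Within the windows, steps of 1 Mb ran from empty to 21 peaks in mouse and from empty to 25 in cattle. The fullest single Mb of the mouse windows was the outermost of chromosome 10 (127360719 to 128360718) with 21 peaks, and that of cattle was on chromosome 25 from 38758423 to 39758422 with 25, followed by the outermost Mb of chromosome 18 with 24. These were picked after their values were seen, and the fullest steps of the rest were not set beside them. Steps of 1 Mb without a peak made up 8.89% of 90 distal steps in mouse (3.92 to 16.8%) against 28.4% of 2199 steps in the rest (26.5 to 30.4%). In cattle they were 9.66% of 145 (5.38 to 15.7%) against 20.2% of 2324 (18.6 to 21.9%). The outermost step of each window holds the last peak by the rule and cannot be empty. Without it the shares were 11.1% of 72 steps (4.92 to 20.7%) in mouse and 12.1% of 116 (6.76 to 19.4%) in cattle. The longest empty stretch in a bovine window was 3.14 Mb on chromosome 20 (67852937 to 70990605).

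Bovine distal peaks were narrower than peaks elsewhere on their chromosomes. Width was not used to choose the members, so it was tested, by a linear fit of log2 width on zone and chromosome over all autosomal peaks with errors clustered by chromosome. Its p-values describe the spread among peaks and chromosomes of 1 list and say nothing of animals. The fit sets distal and proximal peaks each against the interior, which is the rest of the chromosome without the proximal window. The 960 bovine members had a median width of 1119 bp (1075 to 1146), with quartiles at 880 and 1393 bp, and the 10102 interior peaks 1235 bp (1225 to 1246). The fitted difference was -0.13 on the log2 scale (SE 0.0165, -0.16 to -0.10), or -8.59% (-10.7 to -6.42%), adjusted p = 6.2e-08 over 4 terms (n = 29 chromosomes). The median width was lower than in the rest on 26 of 29 chromosomes, where 45.0% of all 5 Mb tiles had a lower median than the rest of their chromosome. The exceptions were chromosomes 19, 22 and 25, at 45.5, 5 and 8 bp above their rest. The gap was widest on chromosome 1, whose 19 members had a median of 867 bp against 1283.5 bp, and on chromosome 9, with 882.5 bp against 1248.5 bp.

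Bovine distal peaks were narrower than proximal ones too. The proximal median was 1210.5 bp (1175 to 1260), and the fitted difference of distal from proximal was -7.22% (-11.1 to -3.23%). Proximal peaks themselves stood at -1.48% from the interior (-4.68 to 1.83%, adjusted p = 0.36 in the same linear fit, n = 29 chromosomes). Among the widest 50% of peaks the distal to proximal interval included 0, at -0.0262 on the log2 scale (-0.0583 to 0.00597). That cut was made on width, the fitted value itself, so this term cannot be set against that of all peaks.

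In mouse the fit called no difference in width. The 425 mouse members had a median of 919 bp (876 to 967), the 5729 interior peaks 954 bp (942 to 965) and the 248 proximal peaks 993.5 bp (959 to 1055). The fitted distal difference was -0.05 on the log2 scale (SE 0.0286), or -3.14% (-7.10 to 0.995%), adjusted p = 0.25 (n = 18 chromosomes). The distal median was the lower one on 11 of 18 chromosomes, against 45.9% of all tiles. Single chromosomes lay on both sides, from 765 bp against 961.5 bp on chromosome 2 to 1168.5 bp against 945 bp on chromosome 19. The distal to proximal difference was -6.72% (-13.2 to 0.285%), and its interval fell below 0 when chromosome 7, 11 or 17 was left out.

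The narrower widths of cattle reached beyond the window. With peaks more than 20 Mb from the last peak as the reference, the fitted difference was -9.75% (-12.1 to -7.38%) in the distal 5 Mb, -5.37% (-7.73 to -2.94%) from 5 to 10 Mb, -5.36% (-7.85 to -2.80%) from 10 to 15 Mb and -1.92% (-4.10 to 0.304%) from 15 to 20 Mb. In mouse the 4 values lay between -6.49% and -3.52%, and the interval excluded 0 for the tile from 15 to 20 Mb only (-11.2 to -1.55%). This breakdown by distance was added after the data were seen.

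**Figure D4:**
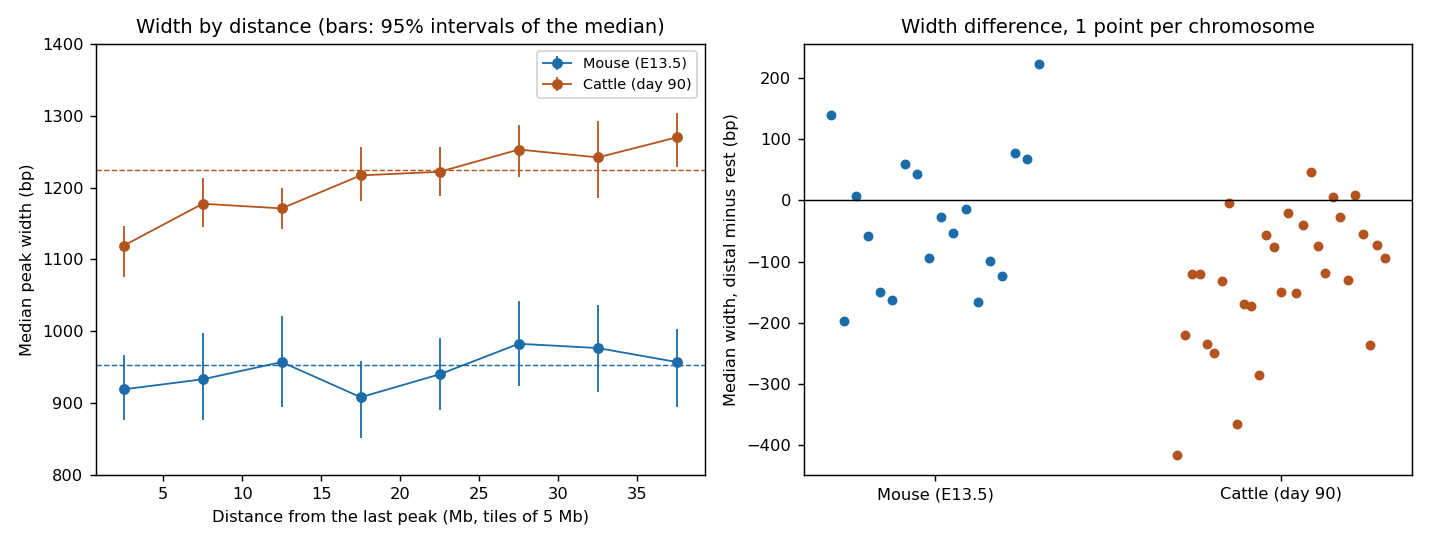
Left: median peak width (bp, y axis starting at 800) in 5 Mb tiles by distance from the last peak (x axis), with 95% intervals and the median of all autosomal peaks as a dashed line; the bovine median rises from 1119 bp in the distal tile to 1270 bp at 35 to 40 Mb. Right: distal minus rest in median width, 1 point per chromosome in order of number; 26 of 29 bovine and 11 of 18 mouse points lie below 0.

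The excess of bovine distal peaks was largest among narrow peaks and was not seen among the widest. When each list was split into 4 equal parts by width, which was also done after the data were seen, the narrowest bovine part (under 958 bp) held 318 distal peaks, 1.81 times the 176.1 expected from the rest (1.61 to 2.05). The ratio was 1.45 (1.27 to 1.65) in the second part, 1.24 (1.08 to 1.42) in the third and 0.875 (0.739 to 1.03) in the widest (1505 bp and over). Of the bovine members 33.1% (318) lay in the narrowest part and 16.6% (159) in the widest, against 24.9% and 25.0% of all autosomal peaks. Among the widest 50% of bovine peaks the distal density was 1.09 times that of the rest (0.979 to 1.20) and 1.07 times that of the proximal windows (0.927 to 1.24). Both intervals include 1.

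In mouse the excess was present in all 4 parts. The ratios were 2.11 (1.75 to 2.54), 1.64 (1.33 to 2.01), 1.39 (1.11 to 1.74) and 1.72 (1.40 to 2.09) from the narrowest to the widest. Of the mouse members 30.1% (128) were in the narrowest part and 25.4% (108) in the widest, against 24.9% and 25.0% of the list. Among the widest 50% of mouse peaks the distal ratio was 1.58 (1.36 to 1.83).

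**Figure D5:**
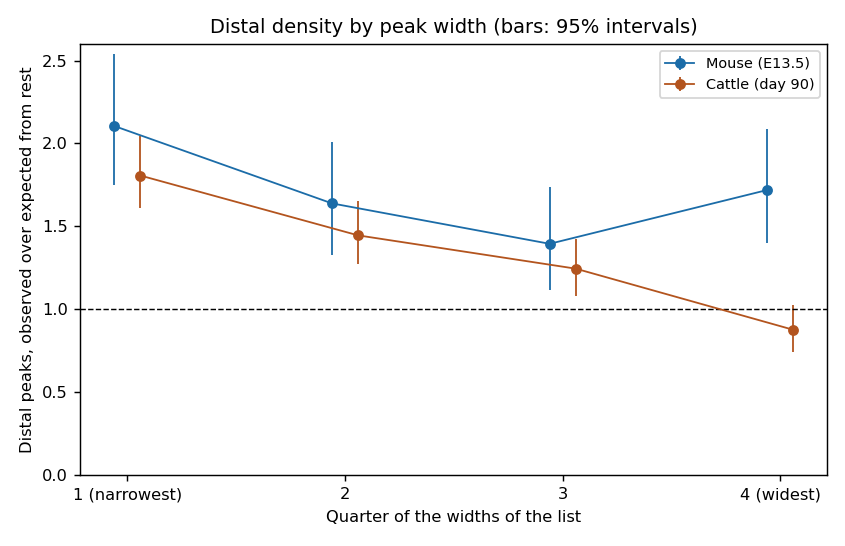
Distal SOX9 peaks observed over those expected from the rest of each chromosome (y axis) in 4 equal parts of each list by peak width (x axis, narrowest to widest), with 95% intervals; the dashed line is a ratio of 1. The bovine ratio goes from 1.81 to 0.875, and the mouse ratio is 2.11 in the narrowest part and 1.72 in the widest.

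Peaks over 2000 bp numbered 6 of the 425 mouse members, 1.41% (0.520 to 3.05%), an interval that holds the 2.22% of all mouse autosomal peaks. They numbered 26 of the 960 bovine members, 2.71% (1.78 to 3.94%), below the 4.34% of all bovine autosomal peaks. The widest mouse member measured 2723 bp and lay at 59531931 to 59534653 of chromosome 19. The following ones were a 2411 bp peak near the end of chromosome 1 (193960207 to 193962617), a 2318 bp peak on 10 (128240696 to 128243013) and a 2197 bp peak on 11 (117514933 to 117517129). The fifth was the final peak of chromosome 19 (61301127 to 61303270) with 2144 bp. All 5 stood alone, the nearest other peak being 25.1 to 123.8 kb away.

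Among bovine members a 3074 bp peak of chromosome 11 (103838827 to 103841900) and a 3064 bp peak of chromosome 3 (118629459 to 118632522) were the widest. A 2736 bp peak of chromosome 2 (136524951 to 136527686), a 2566 bp peak of chromosome 5 (120037244 to 120039809) and a 2479 bp peak of chromosome 6 (116109723 to 116112201) followed. Here 2 of the 5 had close company: the peak on chromosome 5 had a neighbour at 2.50 kb and that on chromosome 2 at 9.28 kb.

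Close company was set against density, since neighbours are more frequent wherever peaks are dense. In mouse 81 distal peaks, 19.1% (15.4 to 23.1%), had another peak within 10 kb, edge to edge, against 14.7% in the rest and 14.9% of all autosomal peaks. Both of these shares lie below the interval. A logistic fit on the peak number of the tile, made on the 405 interior tiles that held a peak, gave 16.1% at the peak numbers of the distal tiles, which lies inside the interval. In cattle the share was 30.6% (27.7 to 33.7%, 294 peaks) against 30.5% in the rest and 30.5% of all autosomal peaks, and the fit on 423 interior tiles gave 32.6%. Bovine ends were therefore denser without a detectably larger share of peaks within 10 kb of each other.

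At longer range, peaks of the distal windows lay closer together than those of the rest. The median distance to the nearest peak was 40.1 kb in the mouse windows and 67.0 kb in the rest, and 22.0 kb and 27.7 kb in cattle. Within 50 kb, 54.4% of mouse distal peaks (49.5 to 59.2%) had a neighbour against 40.7% in the rest, and 70.4% of bovine ones (67.4 to 73.3%) against 63.8%. The fit on the peak number of the tile gave 50.4% and 69.6% at the distal tiles' peak numbers, inside both intervals. This fit at 50 kb was added after the data were seen, and the median distances were not fitted on density. Peaks almost touching another, at under 500 bp, had shares in the rest that fell inside the intervals of the distal shares: 6.59% (4.42 to 9.38%) against 6.48% in mouse and 10.2% (8.37 to 12.3%) against 11.7% in cattle.

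Peaks with company were the narrower ones at the ends as well. In mouse windows the median was 775 bp with a neighbour within 10 kb and 938 bp without, and in bovine windows 1030 and 1145 bp. Bovine members without a neighbour were still narrower than the lone peaks of the interior, at 1290 bp. In the linear fit on lone peaks, the bovine distal difference was -0.15 on the log2 scale (-0.18 to -0.11, adjusted p = 3.6e-08, n = 29 chromosomes). In a separate linear fit on all autosomal peaks, with the peak number of the tile as a further term, it was -0.12 (-0.16 to -0.08, adjusted p = 8.5e-07, n = 29 chromosomes). Both of these fits were added after the data were seen.

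Chains of peaks linked by gaps of at most 10 kb numbered 38 in the mouse windows, of which 4 held 3 or more peaks, and 127 in the bovine windows, of which 31 did. Over all autosomal peaks, 41 of 456 mouse chains and 284 of 1620 bovine chains held 3 or more. The numbers of chains were not set against density. The largest mouse chain sat at the inner edge of the window on chromosome 13, from 115247453 to 115250981. It packed 4 peaks into 3.53 kb, each narrow, at 381, 433, 476 and 509 bp, with gaps of 813, 291 and 626 bp, and the next peak inward was 838522 bp away. Chains of 3 lay on chromosome 10 (127520375 to 127534318), chromosome 7 (148652734 to 148668330) and chromosome 2 (181315976 to 181334074), over 13.9, 15.6 and 18.1 kb. In each of these the middle peak was the widest, at 1381, 1166 and 1547 bp. The fifth chain was a pair on chromosome 5 (147774891 to 147775966) of 549 and 477 bp, 50 bp apart.

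The largest bovine chain was on chromosome 25 from 39422495 to 39433165, with 6 peaks in 10.7 kb. Their widths in order were 714, 1588, 939, 759, 1363 and 1551 bp, and the gaps 235, 2055, 237, 303 and 927 bp. Another chain of 4 lay shortly before it, between 39319269 and 39332869. Chromosome 18 carried 4 peaks as 2 pairs (63101112 to 63108272), in which the partners were 229 and 39 bp apart and the pairs 3906 bp. The chains of 4 on chromosome 15 (84094663 to 84107375) and chromosome 22 (59832510 to 59847702) each held a pair under 500 bp apart, with gaps of 139 and 343 bp.

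The peaks on either side of the 5 Mb limit were as follows. In mouse the member nearest to it was the 381 bp peak of the chain on chromosome 13, 28.8 kb inside, and the nearest peak outside was one of 873 bp on chromosome 11 (116555502 to 116556374), 8.84 kb beyond. In cattle the nearest inside was a peak of 909 bp on chromosome 12 (86101563 to 86102471), by 6.16 kb, and the nearest outside one of 916 bp on chromosome 11 (102196101 to 102197016), by 16.7 kb.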

How the data were processed

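SOX9 ChIP-seq and input libraries of fetal testis (mouse E13.5, cattle day 90, 6 libraries in all) were represented by 1 deposited peak list per species. The authors' lists give chromosome, start, end and a value that was checked to equal end minus start, the width in bp. The builds mm9 and UMD3.1 come from the submitters' processing notes. How reads were aligned, peaks called and replicates pooled is not given in the sources used here. The lists hold no counts or heights, so depth is unknown.

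The members and the features to be named were chosen with earlier results of these data known. Named were, per species, the 5 fullest and 3 emptiest distal windows, the 5 widest members and the 5 largest chains. Spans ran from the first to the last peak, since chromosome lengths were not used. Density ratios have exact intervals given each chromosome's total, densities exact Poisson intervals, shares exact binomial ones and medians order-statistic ones. Widths were fitted with statsmodels 0.14.6, with Benjamini-Hochberg adjustment over the distal and proximal terms of both species. The width and density steps were run on simulated data with a known density ratio and width shift. Peaks there were placed at random without clustering and widths were drawn independently. How the intervals behave when neighbouring peaks depend on each other was thus not tested. No reference genome or annotation of these builds was used, so the planned gene and motif description was not run. Alternatives were windows of 2 and 10 Mb, the widest 50% of peaks, merging under 500 bp, other neighbour distances, added terms and leaving out each chromosome.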

Additional observations from a re-analysis of the deposited data

Results flagged for a closer look

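The distal width difference was larger in cattle than in mouse by a test of the difference itself. In 1 linear fit over both lists with errors clustered by chromosome (n = 47 chromosomes), the bovine distal term minus the mouse one was -0.0836 on the log2 scale (95% interval -0.149 to -0.0181, p = 0.013). With a window of 10 Mb in place of 5 Mb the difference was -0.0541 (-0.115 to 0.00724, p = 0.082, n = 47 chromosomes) and the call was lost. Each list has no replicate, and species, stage, depth and peak calling cannot be told apart. This test was added after the data were seen.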

How the results depend on the processing

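Of 86 alternative values, 59 kept their direction and call or stayed within the interval. Of the others, 20 were ratios or shares outside the main interval, none of these ratios changing direction. A further 2 changed sign, 3 gained a call and 2 lost one. For chromosomes left out, only the lowest and highest values and those with another label were counted. The distal density over the rest was 1.99 in mouse and 1.70 in cattle with a window of 2 Mb, and 1.43 and 1.48 with 10 Mb. With the widest 50% of peaks it was 1.09 in cattle, and without chromosome 19 it was 1.45. Distal over proximal was 1.41 in mouse with 2 Mb and also with the widest 50%, and 2.08 without chromosome 19. In cattle it was 1.60 with 10 Mb and 1.07 with the widest 50%. With the widest 50% the mouse width terms, not called, turned to 0.0205 against the interior and 0.0376 against proximal (log2). The bovine distal to proximal width term was then -0.0262. This cut selects on width, the fitted value itself, so these width terms cannot be set against those of all peaks. The mouse distal to proximal width term was -0.124, -0.118 and -0.114 without chromosomes 7, 11 and 17, below 0 by its interval. The width difference between species was -0.0541 with 10 Mb and lost its call (p = 0.082, n = 47 chromosomes). The share with a neighbour was 5.05% in mouse and 12.4% in cattle with the widest 50%, against 4.76% and 11.18% in the rest. After merging it was 13.1% (10.03 to 16.8%) and 23.5%, against 8.72% and 20.98%. Within 5 kb it was 12.7% and 21.5% against 10.71% and 22.98%, and within 50 kb 54.4% and 70.4% against 40.7% and 63.8%. In cattle with 2 Mb it was 26.2% (22.3 to 30.3%), below the 30.73% of the rest. With 10 Mb the bovine share was 32.7% (30.7 to 34.8%), above 30.09%. The merged mouse share and both shares within 50 kb were also above the rest by their intervals. So were the mouse shares within 10 kb in the main setting, at 19.1% (15.4 to 23.1%) against 14.7%, and with other windows. With 2 Mb the mouse share was 22% (16.5 to 28.4%) against 14.72%, and with 10 Mb 17.9% (15.1 to 20.9%) against 14.59%. No cause of these changes was tested. Leaving out or joining peaks and changing the distance alter by construction what the share counts, and a window of another size changes which peaks are counted. No paired analysis was possible because the libraries of a species share 1 list, which also kept replicates from being left out. Chromosome lengths of the builds were not used, so that alternative was not run. Depth is unknown, so regions too shallow to be called cannot be seen.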

Other observations

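The ratio of distal to rest showed little relation to how dense or long a chromosome was. Across chromosomes, which share 1 list per species, this ratio went with the density of the rest at Pearson r = 0.0344 (Spearman rho 0.0444) over 18 mouse chromosomes and at -0.262 (rho -0.184) over 29 bovine ones. With the span of the chromosome the values were 0.0753 (rho 0.110) and 0.00487 (rho 0.0862). The density of the rest is also the denominator of the ratio, and these values only describe the lists.

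The last peaks themselves, 1 per chromosome, had a median width of 1014 bp in mouse (658 to 1345, n = 18) and 1140 bp in cattle (952 to 1450, n = 29). They ranged from 611 to 2144 bp and from 478 to 2121 bp.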
